A study of Mus musculus with 18 samples.

Results

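Accessible chromatin was compared between wild-type mouse embryonic stem (ES) cells given ICRF-193 for 1 h and cells given DMSO, the solvent, by ATAC-seq. The comparison holds 6 of the 18 samples of the series: the 3 libraries titled as ICRF 1 h and the 3 titled as DMSO 1 h, chosen by title alone. The dose was 1 µM. All 6 came from wild-type cells grown on gelatin in medium with serum and LIF, and viable cells were sorted before their nuclei were transposed. The replicates of the treatment are described as passages of the cells, so the spread covers passages and libraries and not independent lines. The protocol text gives only a 24 h treatment of wild-type cells, and the 1 h duration comes from the titles and the design text. The other 12 samples are wild-type cells treated for 24 h and Brg1 fl/fl or Baf53a fl/- cells with or without deletion, and they enter only where named.

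Topoisomerase II (TOP2) cuts both strands of a DNA duplex, passes another duplex through the break and reseals it, which removes knots, links and supercoils from chromatin. ICRF-193 is a catalytic inhibitor that holds the enzyme as a closed clamp on DNA after strand passage, and unlike a TOP2 poison it does not act by stabilising the cut intermediate. In ATAC-seq a hyperactive transposase cuts accessible DNA and tags it for sequencing, so promoters, enhancers and other open sites appear as peaks. TOP2 is known to act with the BAF (SWI/SNF) chromatin remodelling complex in ES cells, and the 1 h treatment gives an early time point beside the one at 24 h.

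At 1 h, none of the 28493 regions found in all 6 lists and none of the 2229 tested bins of 1 Mb passed the test for a difference between ICRF-193 and DMSO after correction for the number tested. The other regions of the lists were described by detection alone. Nearly all strong regions were present in both groups. The regions that held a peak in every list of 1 group and in no list of the other were few and mostly weak. More of them were missing from the ICRF-193 lists, each of which was shorter than the DMSO list of the same replicate number. The files hold a peak list for each library on the mm9 build, with the position and a score for each peak, and no read counts. Read depth is therefore unknown, and the part of depth in the length of a list was not tested. A gene annotation of the mm9 build was not used here, so regions are named by position alone, and the markers of ES cells could not be looked up at their genes.

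The 6 lists differed in length more within a group than between groups. DMSO replicates 1, 2 and 3 held 121510, 58532 and 129880 peaks, and ICRF-193 replicates 1, 2 and 3 held 100932, 50611 and 95405 peaks. Both replicate 2 lists stood apart as the shortest, and the groups overlapped. Peaks covered 37.2, 14.9 and 36.0 Mb in the DMSO libraries and 30.4, 13.2 and 26.7 Mb in the ICRF-193 libraries. Each ICRF-193 list was shorter than the DMSO list of the same replicate number, with ratios of 0.831, 0.865 and 0.735 for numbers 1, 2 and 3. The mean log2 number of peaks differed by -0.31 (16.26 ± 0.55 with ICRF-193 against 16.57 ± 0.64 with DMSO, SD, n = 3 each), with a two-sided exact permutation p of 0.5. The smallest p that 3 against 3 libraries allow is 0.1. Without ICRF-193 replicate 2 the difference was 0.011 and had the opposite sign.

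Peak width and the share of peaks on the X chromosome did not separate the groups either. Median peak widths were 223, 192 and 207 bp in DMSO replicates 1, 2 and 3 and 220, 199 and 206 bp in the ICRF-193 replicates, so that each ICRF-193 value lay within the DMSO range. The mean was 208 ± 10.7 bp with ICRF-193 and 207 ± 15.5 bp with DMSO (SD, n = 3 each, exact permutation p = 1). Peaks of 1 kb or more made up 2.09%, 0.378% and 1.07% of the DMSO lists and 1.63%, 0.330% and 1.07% of the ICRF-193 lists. Their mean share was 1.01 ± 0.653% with ICRF-193 and 1.18 ± 0.860% with DMSO (SD, n = 3 each, exact permutation p = 0.7). With equal numbers of peaks it was 1.86 ± 1.46% against 2.70 ± 2.25% (exact permutation p = 0.6, n = 3 each), with differences of -1.69, -0.107 and -0.703 points at numbers 1, 2 and 3. Median widths then differed by -39, -13 and -43 bp (exact permutation p = 0.5, n = 3 each). The X chromosome carried 3.98 ± 0.114% of peaks with ICRF-193 and 3.91 ± 0.187% with DMSO (SD, n = 3 each, exact permutation p = 0.8). Over the 4 list measures the Benjamini-Hochberg adjusted permutation p was 1 for each.

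**Figure D1:**
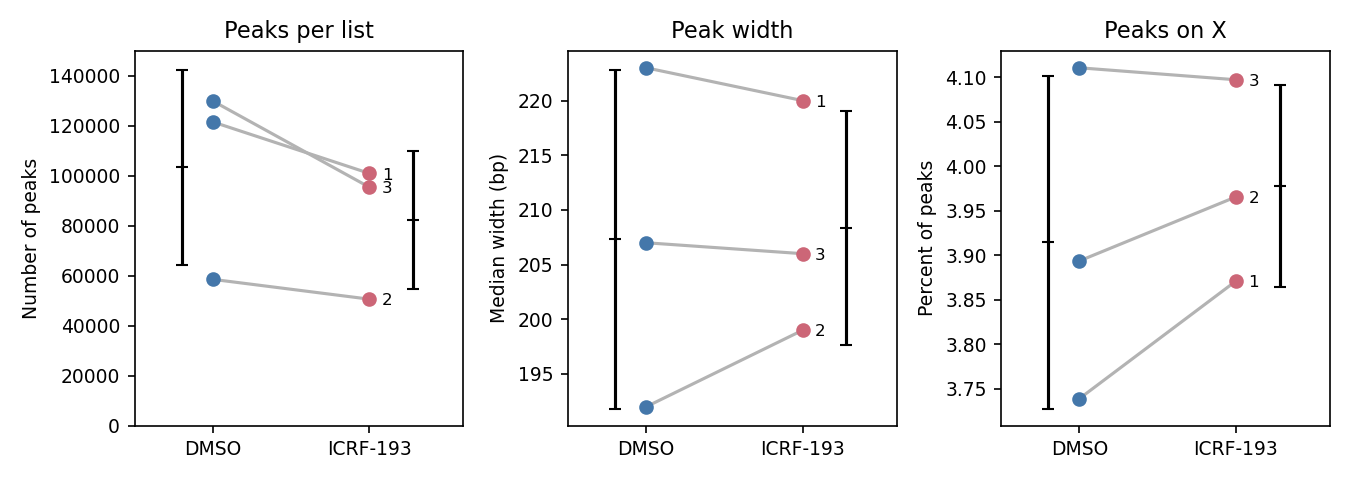
Number of peaks, median peak width (bp) and percent of peaks on the X chromosome in each of the 6 libraries, with grey lines joining the DMSO and ICRF-193 library of the same replicate number (printed at the right) and black bars showing the mean and SD of each group (n = 3). The number of peaks is lower with ICRF-193 in each of the 3 numbered pairs, and the groups overlap in all 3 panels; the width and X axes do not start at 0.

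Peaks of the 6 lists that overlapped by 1 bp or more were merged, which gave 223687 regions. A peak was present in all 6 libraries for 28493 regions (12.7%) and in a single library for 120058 (53.7%). The merged width had a median of 672 bp for regions found in all 6 lists and of 145 bp for regions found in 1 list. Merging more lists widens a region, so these widths are not alike in kind. Within single libraries the base pairs under peaks had medians of 300 to 533 bp in the regions found in all 6 lists. The share of a list's regions that no other list held followed list length. It was 25.9%, 12.3% and 31.1% for DMSO replicates 1, 2 and 3 and 20.6%, 11.1% and 20.6% for the ICRF-193 replicates. Replicate 2 of each group had the lowest share, and DMSO replicate 3, the longest list, the highest.

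**Figure D2:**
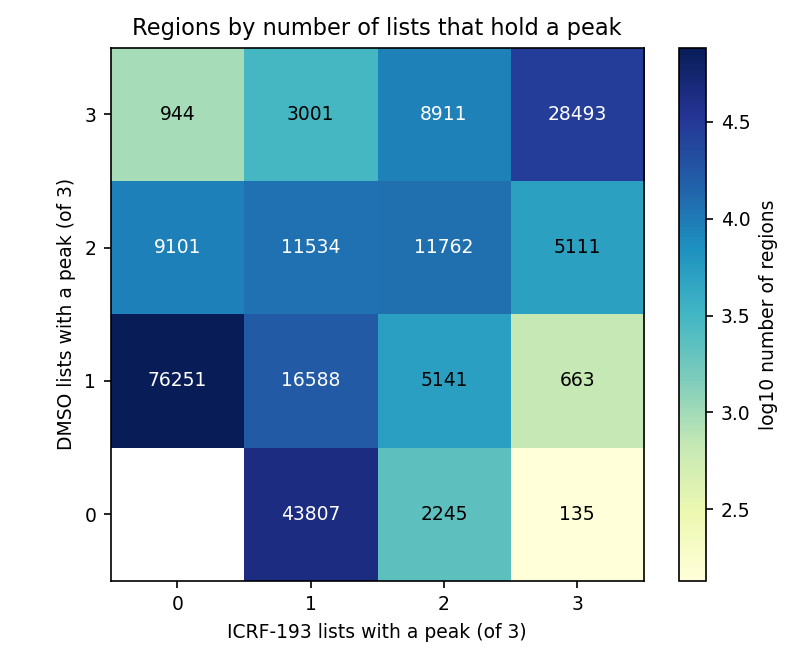
Number of merged regions by how many of the 3 DMSO lists (vertical axis) and of the 3 ICRF-193 lists (horizontal axis) hold a peak, with colour on a log10 scale. The corner of regions in 3 DMSO lists and no ICRF-193 list holds 944 regions, the opposite corner 135, and the corner of regions in all 6 lists 28493.

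The likeness of libraries within a group overlapped that between groups. The Jaccard index, the shared over the combined length of peaks, ran from 0.299 to 0.424 among DMSO libraries and from 0.312 to 0.419 among ICRF-193 libraries. It was 0.436, 0.389 and 0.397 between the DMSO and ICRF-193 libraries of numbers 1, 2 and 3, and between 0.275 and 0.410 for DMSO and ICRF-193 libraries of different numbers. The number of peaks with identical start and end in 2 libraries was at most 60, so no list was a copy of another. The strength of a region was described by its score rank: the percentile, within a library and over the 28493 regions found in all 6 lists, of its highest peak score. The score is the authors' value and has no stated unit. Which regions are common depends on list length, and without both replicate 2 lists there were 49645. Ranks over the 28493 regions run over the same scale in every library. Across these regions, score ranks correlated at 0.723 to 0.794 among DMSO libraries, 0.699 to 0.771 among ICRF-193 libraries and 0.692 to 0.793 between the groups at the same number (Pearson's r across 28493 regions, which are not independent replicates). The lowest values all involved a replicate 2 library.

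Of the 41349 regions with a peak in all 3 DMSO libraries, 944 (2.28%) had a peak in no ICRF-193 library and are called lost regions here. Of the 34402 regions with a peak in all 3 ICRF-193 libraries, 135 (0.392%) had a peak in no DMSO library and are called gained regions. Presence in 3 against 3 libraries cannot reach an exact p below 0.1 for a region, so both terms describe detection only. Lost regions lay mostly at the weak end of the lists. The DMSO-shared regions were ordered by mean score percentile in the DMSO lists and cut into 5 classes of equal size. The weakest class lost 787 of 8269 (9.52%), the next 136 (1.64%), the middle one 18 (0.218%) and the next 3 (0.0363%). In the strongest class 0 of 8270 were lost. Gained regions were as weak: 126 of the 135 lay in the weakest class of the ICRF-193-shared regions, 7 in the next and 2 in the middle one.

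Absence from a single list differed between libraries. A lost region had to be absent from all 3 ICRF-193 lists, so these shares do not show which list set the count. In the weakest class of DMSO-shared regions, 23.2% had no peak in ICRF-193 replicate 1, 64.5% none in replicate 2 and 29.5% none in replicate 3. The short replicate 2 list thus lacked the most, and in the strongest class it still lacked 0.713%, against 0% and 0.0242% for the other two ICRF-193 lists. The reverse count gave the same order: of the weakest class of ICRF-193-shared regions, 7.08%, 45.2% and 8.28% had no peak in DMSO replicates 1, 2 and 3. Of the 3001 regions in all 3 DMSO lists and exactly 1 ICRF-193 list, 1672 were kept by replicate 1, 1138 by replicate 3 and 191 by replicate 2.

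With every list shortened to its 50611 top-scoring peaks, the length of the shortest list, lost regions numbered 459 of 29656 (1.55%) and gained regions 285 of 27678 (1.03%). The ratio of lost to gained regions went from 6.99 as deposited to 1.61 with equal numbers. List length moved with the treatment in each numbered pair, and its part in the excess of lost regions beyond this was not tested. Without both replicate 2 lists, an alternative chosen after the data were seen, 9056 regions were lost and 1924 gained under a rule that then asks for 2 lists a group. Leaving out 1 list makes the rule unequal, since the group of 2 lists meets it more easily: without ICRF-193 replicate 2 alone 1134 regions were lost and 1749 gained, and without DMSO replicate 2 alone 8242 and 155.

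**Figure D3:**
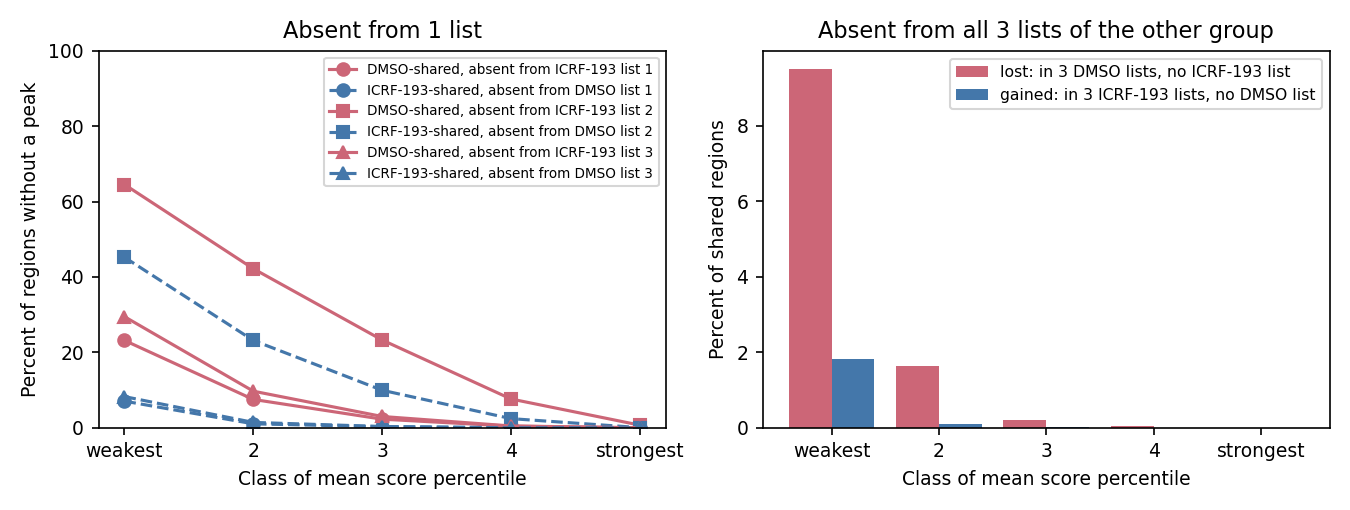
Percent of regions without a peak by class of mean score percentile (5 classes of equal size), from weakest to strongest. Left, DMSO-shared regions absent from each ICRF-193 list (red, solid) and ICRF-193-shared regions absent from each DMSO list (blue, dashed), where both replicate 2 lists (squares) lie highest; right, regions absent from all 3 lists of the other group, 9.52% lost and 1.83% gained in the weakest class and 0% of each in the strongest.

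Once list lengths were equal, the absences within numbered pairs were nearly even in both directions. This follows from the equal lengths, because both directions leave out the same shared regions, and it says nothing about the treatment. With equal numbers of peaks, 25.6% of the regions of DMSO replicate 1 had no peak in ICRF-193 replicate 1 and 24.9% the reverse. For number 2 these shares were 37.4% and 37.3%, and for number 3 they were 26.8% and 25.7%. In the strongest class of each list, 39 of 9992 regions of DMSO replicate 1 were absent from its ICRF-193 partner and 27 of 9896 in reverse. The counts were 203 of 9482 and 131 of 9463 for number 2, and 41 of 9971 and 20 of 9828 for number 3. In all 3 pairs the DMSO-only count of strong regions was the higher, at shares of 0.390%, 2.14% and 0.411% against 0.273%, 1.38% and 0.204%. A two-sided exact sign-flip test over 3 pairs cannot go below 0.25, so this direction could not pass that test.

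Lost regions were spread over the genome. Their median width was 299 bp, against 569 bp for all DMSO-shared regions, and that of gained regions was 285 bp, against 621 bp for all ICRF-193-shared regions. A region's width is that of its merged peaks and grows with the number of lists. Regions in 2 DMSO lists and 1 ICRF-193 list had a median of 310 bp. Those in 1 DMSO list and 2 ICRF-193 lists had 305 bp. The width was thus no trait of lost or gained regions. The 944 lost regions lay on all 20 chromosomes that the lists cover, and the lost share ran from 1.63% of the DMSO-shared regions on chromosome 8 to 2.86% on chromosome 19. On the X chromosome 35 of 1646 were lost (2.13%). The median distance from a lost region to the nearest other region found in all 6 lists was 17508 bp, and for all DMSO-shared regions it was 17391 bp.

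The strongest lost region, by its mean percentile over the DMSO lists, was chr7:143044955-143045466. It ranked at the 85.4, 78.6 and 85.9 percentile of DMSO lists 1, 2 and 3 (mean 83.3 ± 4.06, SD, n = 3), its peaks were 508, 173 and 290 bp wide, and no ICRF-193 list held a peak there. It was present in both DMSO and both ICRF-193 libraries of the 24 h experiment and in 10 of the 12 other libraries of the series. Next came chr16:42549813-42550007 (80.0 ± 13.0, SD, n = 3), chr7:129269272-129269556 (79.1 ± 7.00), chr8:19922717-19922897 (78.7 ± 10.2) and chrX:101657281-101657444 (78.5 ± 13.1). These 4 regions were 164 to 285 bp wide. The region on chromosome 16 was present in 5 of the other 12 libraries, among them 1 of the 2 DMSO and 0 of the 2 ICRF-193 libraries at 24 h. That on chromosome 8 was present in 2 of the 12 and in none at 24 h.

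The top gained regions, picked from 135, ranked lower than the top lost ones, picked from 944. A larger set can hold higher extremes. The median percentiles of all gained and all lost regions were 32.9 and 39.8, within lists of unequal length. chr6:127566612-127566886 stood at the 59.9, 73.1 and 70.5 percentile of ICRF-193 lists 1, 2 and 3 (67.8 ± 6.96, SD, n = 3) and had no peak in any 1 h DMSO list. Both DMSO libraries of the 24 h experiment held a peak there, as did 1 of the 2 ICRF-193 libraries. chr1:24381832-24381993 (66.5 ± 15.4, SD, n = 3) was present in 4 of the 12 other libraries and in none of the wild-type libraries at 24 h. The other 3 were chr13:102575575-102575797 (64.8 ± 12.3), chr10:14041452-14041716 (81.0, 35.7 and 76.7) and chr19:43011503-43011671 (63.8 ± 17.6). Those on chromosomes 13 and 19 had a peak in both DMSO libraries at 24 h.

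The 24 h libraries share no control with the 1 h libraries and show how the lost and gained regions behaved in other passages. Of the 944 lost regions, 46.6% and 64.8% had a peak in DMSO replicates 1 and 2 at 24 h, and 41.9% and 29.4% in ICRF-193 replicates 1 and 2. For all 41349 DMSO-shared regions these shares were 93.5%, 96.4%, 90.2% and 83.1%. For the 7482 regions of the weakest DMSO class that were not lost they were 80.0%, 88.1%, 73.8% and 58.4%. Lost regions, which were chosen for absence from the 1 h ICRF-193 lists, were thus detected less often in each of the 4 libraries, the 24 h controls included. Among lost regions with a peak in both 24 h DMSO libraries, 110 of 325 (33.8%) had none in either 24 h ICRF-193 library. The same was seen for gained regions, at 15 of 45 (33.3%), and the share was 11.9% (651 of 5457) for regions of the weakest DMSO class that were not lost. It was 3.56% for all DMSO-shared regions, 14.5% for all 223687 regions and 60.4% for regions in a single 1 h list, each among those with a peak in both 24 h DMSO libraries. In the 12 other libraries together, lost regions held a peak in a median of 5, gained regions in 4 and DMSO-shared regions in 11. Of the lost regions 26 (2.75%), and of the gained regions 6 (4.44%), had a peak in none of the 12, against 33.9% of all regions and 0.104% of the DMSO-shared ones.

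Among the 28493 regions found in all 6 lists, no difference in score rank was called. At an adjusted p under 0.05 limma called 0% as higher and 0% as lower with ICRF-193, with a lowest adjusted p of 0.992. At an unadjusted p under 0.05 there were 1146 regions (4.02%), of which 531 were higher and 615 lower. The median change was 0.072 percentile points, and changes from -20.1 to 19.6 points held the middle 90% of regions. All 3 ICRF-193 values lay above all 3 DMSO values in 1401 regions (4.92%) and below them in 1345 (4.72%). The typical 95% interval of a region's change reached 25.7 points to either side (limma, median over regions). The spread differed along the rank scale. The SD between DMSO replicates had a median of 9.74 points in the weakest class of mean rank, 15.4 in the middle one and 4.47 in the strongest. A mean rank near an end of the scale leaves less room for spread. Changes in 1 numbered pair bore almost no relation to those in another: Pearson's r across the 28493 regions was 0.018, 0.013 and 0.018 for the 3 combinations of pairs, and the sign matched in 50.4% to 50.8% of regions.

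**Figure D4:**
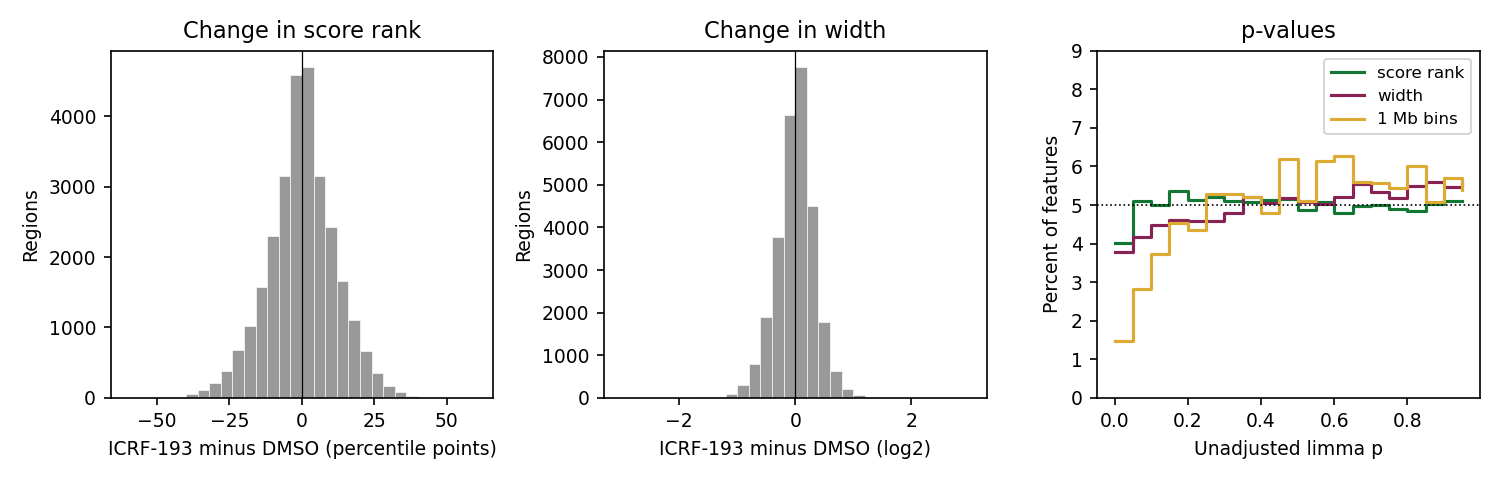
Changes with ICRF-193 for 1 h in score rank (left, percentile points) and in centred log2 width (middle) over the 28493 regions found in all 6 lists, and the share of unadjusted limma p-values in steps of 0.05 (right) for both measures and for 1 Mb bins, with a dotted line at 5%. Both distributions of changes centre near 0, and the first step holds 4.02% of regions for score rank, 3.79% for width and 1.48% of bins.

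The regions with the smallest unadjusted p are described as the extremes of this distribution. None was called, and their groups stand apart because they were chosen for it. The smallest p for a rise belonged to chr6:126889232-126890186, with score ranks of 63.5, 80.0 and 60.6 in DMSO replicates 1, 2 and 3 and of 94.7, 94.9 and 92.5 with ICRF-193. Its change was 26.0 points (SE 5.86, limma adjusted p = 0.992), and the 24 h change was -3.94 points. At 890 bp wide, chr10:83481688-83482577 had ranks of 8.31, 3.38 and 28.3 against 66.5, 64.0 and 49.2 (change 46.6, SE 13.2). Its change at 24 h was -24.99 points. Changes of 43.9, 47.3 and 37.9 points (SE 11.8, 13.0 and 10.6) belonged to chr11:6678582-6678958, chr10:92576710-92577021 and chr1:33726371-33727605, and their changes at 24 h were -17.6, -1.09 and 8.06 points. The last was the only one of the 5 with the same sign at both times. The DMSO ranks of chr11:6678582-6678958, chr10:92576710-92577021 and chr1:33726371-33727605 lay between 0.932 and 20.3, near the bottom of the common set.

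On the falling side the extremes were strong regions. chr13:23460535-23461442 had ranks of 93.4, 93.9 and 94.0 in the DMSO libraries and 75.1, 82.1 and 78.1 with ICRF-193, a change of -15.3 points (SE 3.66, limma adjusted p = 0.992). At 24 h its change was 0.661 points. For chr9:79678455-79679221 the ranks were 97.3, 98.1 and 97.0 against 87.8, 82.1 and 89.7 (change -10.9, SE 2.61), and the change at 24 h was -6.34 points. The other 3 lay on chr2:43786878-43787521 (change -23.4, SE 5.70), chr2:115573274-115573781 (-20.9, SE 5.09) and chrX:74813245-74813885 (-22.1, SE 5.79). At 24 h the changes of these 3 were 1.38, -18.4 and -9.45 points. Without ICRF-193 replicate 2 the fall of chr9:79678455-79679221 was -6.84 points and those of the regions on chromosome 2 were -13.6 and -13.8.

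**Figure D5:**
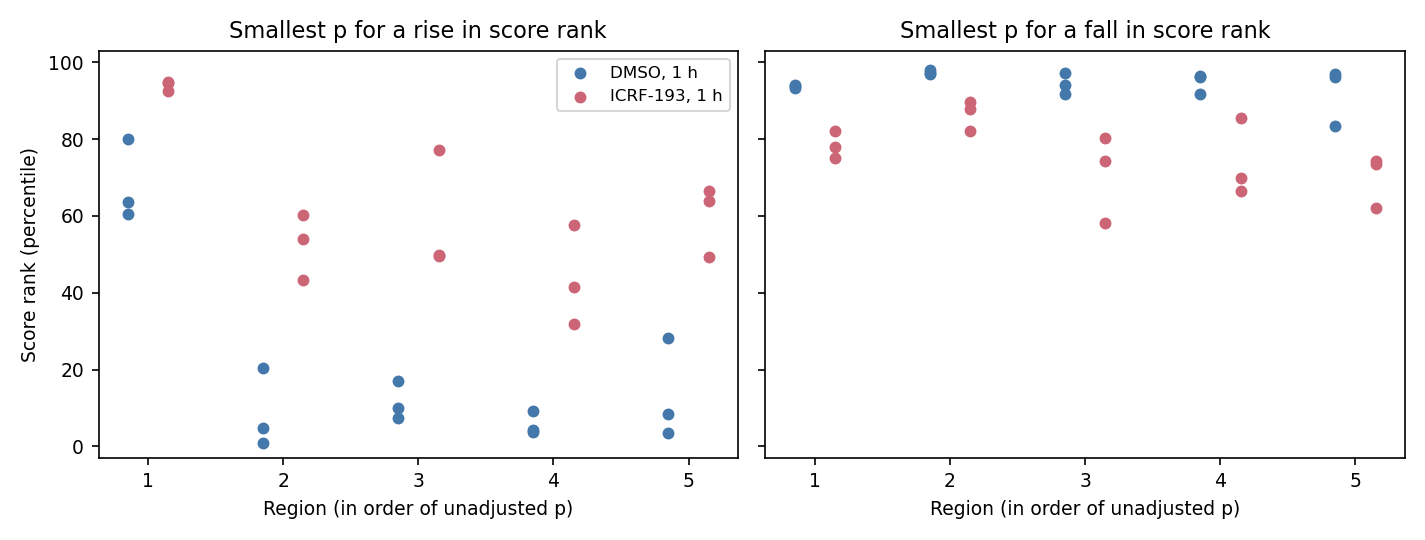
Score rank (percentile over the 28493 regions found in all 6 lists) in each library, DMSO in blue and ICRF-193 in red, for the 5 regions with the smallest unadjusted p for a rise (left) and for a fall (right). The groups stand apart in all 10 regions, which were chosen for it, and no region passed the adjusted test.

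Over the 25804 of these regions that also held a peak in all 4 libraries at 24 h, the changes in score rank at 1 h and 24 h correlated at 0.063 (Pearson's r; Spearman's rho 0.064), and the sign matched in 52.3%. The points share the region and its position in the rank scale, and the correlation is a description only. Median changes over classes of region lay between -0.476 and 0.824 points. Over 5 classes of mean rank, from weakest to strongest, it was 0.779, 0.323, -0.432, -0.0667 and -0.00117 points. From the narrowest to the widest class of regions it was -0.411, -0.476, -0.0693, 0.240 and 0.610 points. It rose from the second narrowest class to the widest in each numbered pair, and in the widest it was 0.111, 0.118 and 1.23 points for numbers 1, 2 and 3. From the closest-spaced class to the most isolated it was 0.824, -0.0222, 0.281, -0.0772 and -0.396 points. The regions of a class share the libraries, and these medians were not tested.

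No region passed the test for a change in width either. The base pairs under peaks had medians of 533, 315 and 488 bp per common region in DMSO replicates 1, 2 and 3 and of 487, 300 and 445 bp in the ICRF-193 replicates. The ICRF-193 value was lower at each number, as list length was, and the groups overlapped (exact permutation p = 0.5). After centring each library on its median, limma called 0% of the 28493 regions as wider and 0% as narrower (lowest adjusted p = 1.00), with 1079 (3.79%) at an unadjusted p under 0.05. All 3 ICRF-193 values lay above all 3 DMSO values in 1261 regions (4.43%) and below in 1089 (3.82%). The middle 90% of changes ran from -0.57 to 0.51 on the log2 scale. The median log2 change was -0.051, -0.0064, 0.0059, 0.028 and 0.053 from the weakest to the strongest class of mean rank, and was not tested.

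The smallest p for a wider region was at chr8:131367606-131368222, where peaks covered 147, 124 and 172 bp in DMSO replicates 1, 2 and 3 and 617, 420 and 443 bp with ICRF-193 (log2 change 1.84, SE 0.34, limma adjusted p = 1.00). Its list percentiles were 69.6, 22.4 and 87.5 in DMSO and 62.3, 79.5 and 58.5 with ICRF-193, so that the groups overlapped in strength where they differed in width. chr1:95132049-95133000 went from 401, 177 and 319 bp to 823, 594 and 720 bp (log2 change 1.43, SE 0.29). The next were on chromosome 2 from 77707750 (1.35), chromosome 4 from 135644877 (1.21) and chromosome 16 from 90712577 (1.46).

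In the other direction, chr11:109521383-109522191 had 788, 417 and 419 bp in DMSO and 168, 123 and 139 bp with ICRF-193 (log2 change -1.75, SE 0.35), and without DMSO replicate 1 the change was -0.75. chr19:57082416-57083360 had 787, 550 and 926 bp against 365, 126 and 280 bp (-1.54, SE 0.31). Those on chromosome 1 from 59565134 (-1.59), chromosome 14 from 52002234 (-1.57) and chromosome 15 from 102009567 (-1.52) were of similar size. None of these 10 was called (limma adjusted p = 1.00).

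Broad accessible regions nearly all held a peak in both groups, but most did not reach 1 kb in every library. Peaks covered 1 kb or more in at least 1 library in 4118 regions, and 3958 of them (96.1%) held a peak in all 6. Of the 291 regions that were this broad in all 3 DMSO libraries, 1 lacked a peak in an ICRF-193 library. Of the 194 that were this broad in all 3 ICRF-193 libraries, 0 lacked a peak in a DMSO library. Only 99 regions were this broad in all 6. Of all DMSO-shared regions, 28.8% were missing from 1 or 2 ICRF-193 lists and 2.28% from all 3. In their strongest class 99.3% were in all 6 lists. The number of regions that reached 1 kb was lower with ICRF-193 at each replicate number and lowest in both replicate 2 libraries. It was 3024, 373 and 1861 in DMSO replicates 1, 2 and 3 and 2182, 277 and 1479 with ICRF-193. Of the DMSO regions of 1 kb or more, 52.3%, 31.9% and 49.8% also reached 1 kb in the ICRF-193 library of the same number, and in reverse the shares were 72.5%, 43.0% and 62.6%. The widest common region, on chr7:121557946-121560208, had 1845, 1687 and 2007 bp under peaks in DMSO and 1887, 1251 and 1956 bp with ICRF-193. The peaks there were split into 3 in DMSO replicate 2 and 4 in ICRF-193 replicate 2, and were single in the other 4 libraries. Next in width were chr17:39979981-39981790, with 1689 to 1806 bp over the 6 libraries, and chr12:119539307-119541114, with 1597 to 1775 bp. The other two were chr5:132012979-132015001 (1230 to 1944 bp) and chr2:139502759-139504826 (1310 to 2068 bp).

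Peaks were divided about as often in both groups. Common regions with 2 or more peaks made up 8.05%, 12.1% and 9.93% in DMSO replicates 1, 2 and 3 and 10.2%, 10.7% and 11.9% with ICRF-193 (means 10.0 ± 2.01% and 10.9 ± 0.877%, SD, n = 3 each, exact permutation p = 0.5). The share was higher with ICRF-193 at numbers 1 and 3 and lower at number 2.

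The 5 strongest regions are those with the highest mean rank over the 6 libraries, so their high ranks in both groups follow from the choice. The highest mean rank was at chr1:24619382-24620096, which ranked first of the 28493 in each of the 6 libraries with 651 to 715 bp under its peak. The next 4 were chr9:35112800-35113174, chr16:11144006-11144401, chr12:3109872-3110121 and chr3:5860341-5860825. Each had a mean rank of 99.98 or more in both groups, and all 5 regions were also detected in the other 12 libraries. Whether a list of regions with unusual mapping was applied before the peaks were called is not given in the sources used here.

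On the scale of megabases no difference in the density of peaks was called either. Numbers of peaks in 2229 bins of 1 Mb, relative to the total of each list, gave 0% of bins called as higher and 0% as lower (limma, lowest adjusted p = 0.997), with 33 bins (1.48%) at an unadjusted p under 0.05. In 54 bins (2.42%) all 3 ICRF-193 values lay above all DMSO values and in 74 (3.32%) below. The smallest p for a rise was at chr13:113000001-114000000, with 90, 32 and 82 peaks in DMSO replicates 1, 2 and 3 and 87, 44 and 73 with ICRF-193 (log2 change in relative density 0.39, SE 0.13). The next rises were on chromosome 16 from 97000001 (0.36, SE 0.13) and from 94000001 (0.34, SE 0.13). The smallest p for a fall was at chr14:79000001-80000000, where 82, 44 and 82 peaks stood against 56, 22 and 51 (-0.43, SE 0.13). chr7:143000001-144000000, which holds the top lost region, had 38, 19 and 49 peaks against 24, 9 and 24 (-0.59, SE 0.19). Chromosome 5 from 132000001, which holds a region among the widest, had 39, 27 and 58 against 31, 11 and 29 (-0.55, SE 0.18). None of these 6 was called (limma adjusted p = 0.997). Without both replicate 2 lists the changes were 0.25 on chromosome 13, -0.26 on chromosome 14 and -0.30 on chromosome 5, and with equal numbers of peaks the first rise on chromosome 16 was 0.11.

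Whole chromosomes kept their share of peaks. The log2 ratio of the mean share with ICRF-193 to that with DMSO ran from -0.043 on chromosome 14 to 0.039 on chromosome 19. The groups overlapped on all 20 chromosomes (0 of 20 with all values of a group on one side). Chromosome 14 carried 3.75%, 3.69% and 4.07% of the peaks of DMSO replicates 1, 2 and 3 and 3.81%, 3.59% and 3.76% of those of the ICRF-193 replicates, which lay within or just below the DMSO range.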

How the data were processed

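ATAC-seq peak lists were deposited, 1 per sample. Per the submitters' processing notes, mm9, Bowtie 0.12.9, edgeR 3.12.1 and MACS2 were used, in roles not stated; edgeR was not used here. Peak positions (other values) and a peak score of no stated unit were taken as deposited by the authors. The sources used here give no read shift, blacklist or calling threshold. Depth is unknown, so no counting interval is given.

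Peaks of the 6 lists overlapping by 1 bp or more were merged (checked against bedtools 2.31.1). Score ranks, centred log2 widths, and log2((peaks + 0.5) / list total × 1000) in bins of 1 Mb (mean of at least 10 peaks) were fitted with limma 3.58.1 in R 4.3.3 (variance trend, Benjamini-Hochberg over all features, no block), tested on simulated data. List measures had two-sided exact permutation tests (Python 3.11.15, scipy 1.17.1). The samples, regions and tests were chosen with earlier results of these data known. The text names 5 lost and 5 gained regions by highest mean percentile, 5 rises and 5 falls (3 each for bins) by smallest p, none being called, and the 5 strongest and widest. Gene-based analyses planned for an mm9 annotation were not run. The deposited list names carry a prefix shared by replicates 2 and 3 and another for replicate 1, with no meaning given, and values are therefore given by number.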

Additional observations from a re-analysis of the deposited data

How the results depend on the processing

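The absence of calls held in every setting run. Score rank, width and bins gave 0 calls in limma without any 1 library (lowest adjusted p of 0.952, 0.345 and 0.567). They also gave 0 calls in the other settings without a block (lowest adjusted limma p of 0.978, 0.582 and 0.0893). These were merging up to 100 bp apart, equal numbers, the lowest-scoring 25% left out and both replicate 2 lists left out. Other rank scales, centring or quantile normalization, and bins of 3 or more peaks were the rest. The lowest value, 0.0893, was for bins without both replicate 2 lists, a setting chosen after the data were seen. With the replicate block, limma called 0 (lowest adjusted p of 0.926, 0.944 and 0.273). An unadjusted limma p under 0.05 was then found for 1340 regions for rank, 1317 for width and 129 bins. Without the block these counts were 1146, 1079 and 33. The sign-flip p of the log2 number of peaks was 0.25. Deviations of score rank from the group means correlated at 0.079, 0.13 and 0.073 between libraries of the same number. For score rank, each library correlated best with its own number. For width this held for all but DMSO replicate 3. It correlated at 0.047 with ICRF-193 replicate 3 and at 0.055 with ICRF-193 replicate 1. This is a hint of pairing from the data only, which the main fits did not use.

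Lost and gained counts moved with list length and rule. With single libraries left out lost regions ran from 1134 to 8242 and gained from 155 to 1749, where the rule asks for 2 lists of the reduced group. Without both replicate 2 lists they were 9056 and 1924, and with equal numbers 459 and 285. Gained regions were 77 with the lowest-scoring 25% of peaks left out, and lost regions 157 without the weakest class. Among the 10 alternatives that give both counts, gained regions outnumbered lost ones only without ICRF-193 replicate 2 alone (1749 against 1134), where the rule is unequal. The median width difference of 1 bp became -31.7 bp with equal numbers and -2 bp without both replicate 2 lists, and the difference in the share of 1 kb peaks went from -0.169 to -0.834 points with equal numbers. With single libraries left out it ran from -6.67 to 8.83 bp, the log2 number of peaks from -0.67 to 0.011, the share of 1 kb peaks from -0.570 to 0.286 points and the X share from -0.0242 to 0.162 points. The cause was not tested. These list differences changed sign without ICRF-193 replicate 2 for the number of peaks, without ICRF-193 replicate 1 or DMSO replicate 2 for width, without DMSO replicate 1 or ICRF-193 replicate 2 for 1 kb peaks and without DMSO replicate 1 for X. The mean width of chr2:139502759-139504826 went from 1639 to 1107 bp without DMSO replicate 1. Unknown read depth limits all comparisons of weak regions.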
